A study of Oryza sativa with 8 samples.

Results

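The genes described here are 4 rice transporters known from roots, Lsi1 (LOC_Os02g51110), Lsi2 (LOC_Os03g01700), Nramp5 (LOC_Os07g15370) and HMA3 (LOC_Os07g12900), chosen by their locus identifiers out of 57403 genes in the expression matrix. The choice was made with earlier results of these data known, so the shares of all genes set beside their counts are descriptive. RNA was sequenced from whole 2-week-old rice seedlings grown in hydroponic medium. They belonged to cultivar ZH11, labelled wild-type, or to OE1, 1 transgenic line labelled as overexpressing ScOYE3, which names a yeast NADPH-dependent flavin reductase. The transgene's promoter and the line's parent are not given in the sources used here. Each genotype was collected untreated or 8 h after 2-nitroaniline, a nitroaromatic compound, had been added to 0.8 mM. This gives 4 groups (untreated ZH11, treated ZH11, untreated OE1 and treated OE1) of 2 libraries each, and each library was made from 20 plants pooled. Whether replicate pools were raised separately is not stated, so every p-value here rests on a spread between libraries that may be technical.

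Rice is a silicon accumulator. Silicic acid crosses the root through an influx channel on the outer face and an efflux carrier on the inner face of exodermal and endodermal cells, the layers sealed by Casparian strips: Lsi1, an aquaporin-type channel also named NIP2-1, does the first and Lsi2, a carrier related to arsenite pumps, the second. Nramp5 is the main entry route of manganese into rice roots and also admits cadmium. HMA3, a P-type ATPase of the tonoplast, moves cadmium into root vacuoles and so keeps it from the shoot.

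The best Swiss-Prot match of each identifier was the rice protein of that name, NIP2-1, LSI2, NRAMP5 and HMA3. LSI2 was also the match of LOC_Os02g57620, LOC_Os03g05390 and LOC_Os10g31040, so this match alone does not single out LOC_Os03g01700. The locus identifiers place Lsi1 on chromosome 2, Lsi2 on chromosome 3 and both Nramp5 and HMA3 on chromosome 7, and the deposited gene lengths are 1516, 2306, 2213 and 3015 nt. The genome build is not given in the sources used here. Roots and shoots were not sequenced apart, so the root expression of the 4 genes cannot be checked. In whole seedlings, fewer root cells and less RNA per root cell cannot be told apart. Levels are in TPM, a transcript abundance corrected for length and depth. Folds are on the log2(TPM + 1) scale, which understates changes at low TPM. The ± SE printed with them comes from the limma fit of all 8 libraries, 2 per group. It pools the spread of a gene over the 4 groups, so it is not the scatter of the compared groups alone. For Nramp5 under treatment in OE1 it was 0.24, and 0.098 when only the 4 OE1 libraries were fitted.

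The libraries held 42137208 to 56535764 trimmed reads. Treated ZH11 replicate 2 stood apart, with a GC content of 52.04% against 53.51% to 55.43% in the others. Together with untreated ZH11 replicate 2 it had longer reads, 149.1 and 149.78 nt on average against 144.95 to 146.85 nt. Its values also ran higher with gene length. The smoothed deviation at the length of the gene was -0.02 for Lsi1, 0.29 for Lsi2, 0.26 for Nramp5 and 0.48 for HMA3 on the log2 scale. Folds of the 4 genes that move with this library are given with and without it.

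The 4 genes lay at very different levels and kept the same order, Lsi1 above Lsi2 above Nramp5 above HMA3, in all 8 libraries. Lsi1 had 211 to 378 TPM, above 97.3% to 98.7% of the 25281 genes tested. Lsi2 had 98.3 to 191 TPM and lay above 93.2% to 96.9% of them. Nramp5 had 13.8 to 32.9 TPM and HMA3 only 3.23 to 5.58 TPM. No range overlapped that of its neighbour in this order. The closest neighbours were Lsi1 and Lsi2, whose ratio within a library was as low as 1.54.

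**Figure D1:**
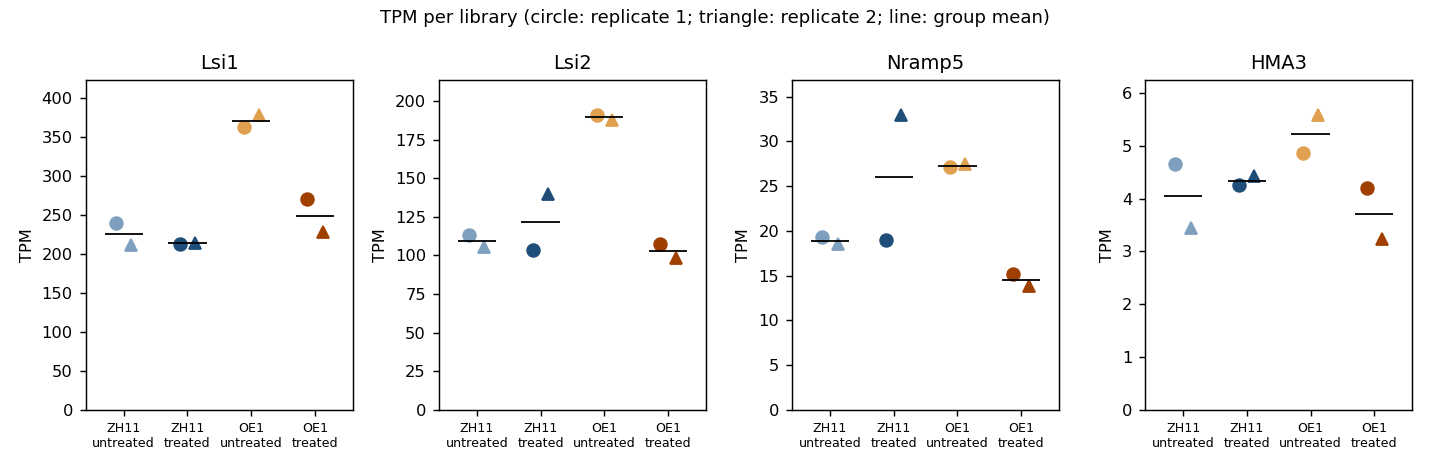
TPM of Lsi1, Lsi2, Nramp5 and HMA3 in each of the 8 libraries, 1 panel per gene with its own axis from 0, points for the replicates and a line for the group mean. The untreated OE1 libraries are the highest for Lsi1, Lsi2 and HMA3, and for Nramp5 only treated ZH11 replicate 2, at 32.9 TPM, lies above them.

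In OE1, all 4 transcripts were lower after 2-nitroaniline, Lsi2 and Nramp5 by the most, but none passed the test. Lsi1 had 363 and 378 TPM untreated and 270.1 and 229 TPM treated. Its log2 fold was -0.57 ± 0.14 (limma adjusted p = 0.195). Both treated libraries lay below both untreated ones.

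Lsi2, which releases silicon towards the vessels, had 191 and 188 TPM untreated and 107 and 98.3 TPM treated. The untreated libraries lay close together and well above the treated ones. Its log2 fold was -0.87 ± 0.17 (limma adjusted p = 0.106), and 1.49% of all tested genes had a fold at least as far below 0. Nramp5 had 27.2 and 27.4 TPM untreated and 15.2 and 13.8 TPM treated. This is a log2 fold of -0.87 ± 0.24 (limma adjusted p = 0.253), and 1.52% of genes lay as far below 0. HMA3 had 4.87 and 5.58 TPM untreated and 4.19 and 3.23 TPM treated, a log2 fold of -0.41 ± 0.21 (limma adjusted p = 0.664). The HMA3 groups did not overlap, but the gap between them was smaller than the gap between the treated replicates.

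A call needed a limma adjusted p under 0.05 together with a log2 fold of 1 or more in size. In OE1 this held for 0 of the 4 genes and for 0.241% of all tested genes. At an unadjusted p under 0.05 there were 3 of the 4, all lower, where 9.44% of all genes passed in either direction. All 4 had treated libraries below untreated ones, as did 28.6% of all genes. The median fold of the 4 was -0.72 and that of all genes -0.04.

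The outcome in OE1 turned on the spread and on the fold threshold. When only the 4 OE1 libraries were fitted, the limma adjusted p was 0.0216 for Lsi1, 0.00363 for Lsi2, 0.00767 for Nramp5 and 0.224 for HMA3. That is 3 of the 4 genes under 0.05, against 7.46% of all genes, but none of the folds reached 1 in size. With weights by library spread it was again 3 of the 4, against 8.9% of all genes. Among the alternatives other than leaving 1 library out, the limma adjusted p ranged from 0.00683 to 0.300 for Lsi1 and from 0.000821 to 0.205 for Lsi2. It ranged from 0.00265 to 0.354 for Nramp5 and from 0.150 to 0.810 for HMA3. With 1 library left out at a time, the log2 fold was -0.69 to -0.45 for Lsi1 and -0.94 to -0.81 for Lsi2. It was -0.94 to -0.80 for Nramp5 and -0.56 to -0.26 for HMA3.

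In ZH11, treated and untreated libraries overlapped for all 4 genes. Lsi1 had 239.7 and 211 TPM untreated and 213 and 214 TPM treated, with both treated values inside the untreated range. The log2 fold was -0.07 with a 95% interval of -0.41 to 0.26 (limma adjusted p = 0.822). Lsi2 had 113 and 106 TPM untreated and 104 and 139.6 TPM treated (log2 fold 0.14, interval -0.26 to 0.53). Without treated ZH11 replicate 2 the Lsi2 fold was -0.0769, and without replicate 1 it was 0.35 (limma adjusted p = 0.0432, from 0.0432 to 0.891 over the libraries left out in turn), under the fold needed for a call.

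Nramp5 had 19.3 and 18.5 TPM in untreated ZH11 and 19.0 and 32.9 TPM in treated ZH11. The high value is that of replicate 2, the library that stood apart, and the other treated library lay between the untreated ones. The log2 fold was 0.39 ± 0.24 (limma adjusted p = 0.512), and it was 0.0065 without replicate 2. Without replicate 1 it was 0.77 (limma adjusted p = 0.00670, from 0.00670 to 0.993 over the libraries left out in turn), again too small a fold for a call. HMA3 had 4.66 and 3.44 TPM untreated and 4.25 and 4.42 TPM treated, again inside the untreated range. None of the 4 was called, against 0.289% of all genes, and none had an unadjusted p under 0.05, against 12.7%. None had groups that did not overlap, against 34.3%.

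**Figure D2:**
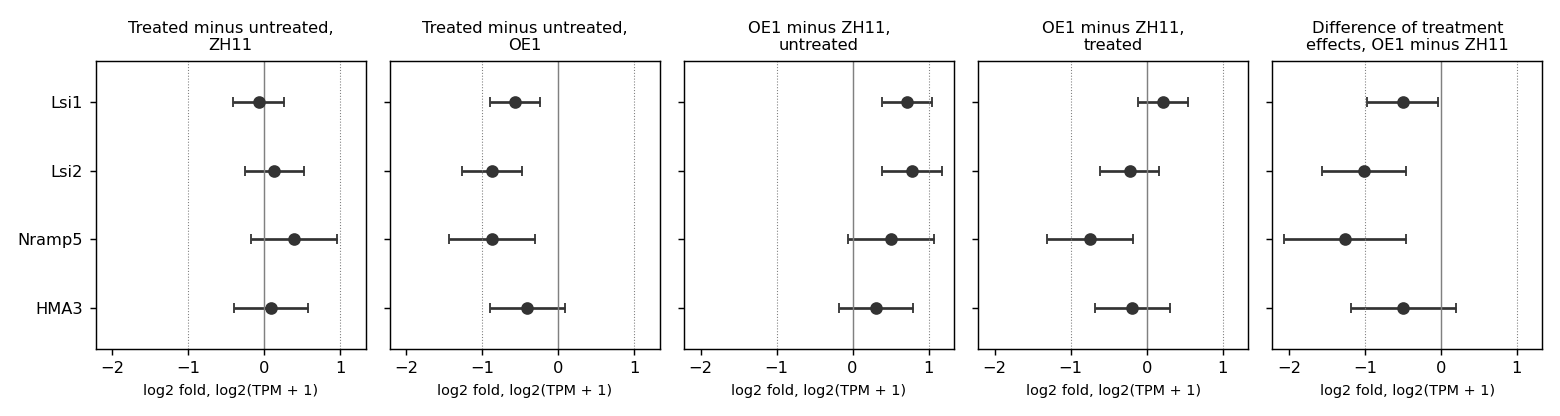
Log2 fold of each gene, on the log2(TPM + 1) scale, in 5 comparisons, with 95% intervals from the limma fit of all 8 libraries (n = 2 per group). Dotted lines mark a 2-fold change. The intervals of Lsi1, Lsi2 and Nramp5 lie below 0 for treatment in OE1 and for the contrast of OE1 with ZH11 treatment effects, while all 4 intervals include 0 for treatment in ZH11.

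Untreated OE1 seedlings had more of all 4 transcripts than untreated ZH11 seedlings, and the silicon genes differed the most. Lsi1 had 363 and 378 TPM in OE1 against 239.7 and 211 TPM in ZH11 (log2 fold 0.72 ± 0.14, limma adjusted p = 0.168). Lsi2 had 191 and 188 TPM against 113 and 106 TPM (log2 fold 0.78 ± 0.17, limma adjusted p = 0.218). For both genes the gap between the genotypes was several times the gap between replicates.

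Nramp5 had 27.2 and 27.4 TPM in OE1 against 19.3 and 18.5 TPM in ZH11, a log2 fold of 0.51 with a 95% interval of -0.06 to 1.07. HMA3 differed by 0.31, with an interval of -0.18 to 0.80. Of the 4 genes, 0 were called, against 0.443% of all genes, and 2 had an unadjusted p under 0.05, against 4.94%. OE1 lay above ZH11 without overlap for all 4, which held for 21.7% of all genes. The median fold of the 4 was 0.61 and that of all genes 0.01. With the library weights, equal within each group and largest in untreated OE1, the limma adjusted p was 0.0149 for Lsi1 and 0.00618 for Lsi2. These were the lowest values among the alternatives other than leaving 1 library out, where it reached 0.316 and 0.410. Both folds were still under 1 with the weights, and 1.23% of all genes had an adjusted p under 0.05 in that fit. With 1 library left out at a time, the log2 fold was 0.63 to 0.81 for Lsi1 and 0.73 to 0.84 for Lsi2.

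Under treatment the order of the genotypes was not the same for all genes. Lsi1 was still higher in OE1, with 270.1 and 229 TPM against 213 and 214 TPM in ZH11 (log2 fold 0.22, 95% interval -0.11 to 0.55). Lsi2 overlapped, with 107 and 98.3 TPM in OE1 and 104 and 139.6 TPM in ZH11. Its log2 fold was -0.23, and -0.013 without treated ZH11 replicate 2. Nramp5 was lower in OE1, with 15.2 and 13.8 TPM against 19.0 and 32.9 TPM (log2 fold -0.75 ± 0.24, limma adjusted p = 0.238).

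That Nramp5 fold rested on treated ZH11 replicate 2. Without it the value was -0.37 (limma adjusted p = 0.276), and without replicate 1 it was -1.13 and called (limma adjusted p = 0.00184, from 0.00184 to 0.851 over the libraries left out in turn). HMA3 had 4.19 and 3.23 TPM in OE1 and 4.25 and 4.42 TPM in ZH11, so its groups all but touched. With all libraries 0 of the 4 were called, against 0.953% of all genes. An unadjusted p under 0.05 was reached by Nramp5 alone, against 15.1% of all genes. Groups did not overlap for 3 of the 4, against 42.4%.

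The treatment effect in OE1 minus that in ZH11 was below 0 for all 4 genes. It was -1.26 ± 0.34 for Nramp5, -1.01 ± 0.24 for Lsi2, -0.50 ± 0.20 for Lsi1 and -0.50 ± 0.29 for HMA3 (log2, limma adjusted p = 0.516, 0.425, 0.745 and 0.805). None of the 4 was called, against 0.0316% of all genes, and 3 had an unadjusted p under 0.05, against 6.45%. Without treated ZH11 replicate 2 the values of Nramp5 and Lsi2 were -0.88 and -0.80, not called. Leaving out treated ZH11 replicate 1 gave -1.64 and -1.22, and both genes were called (limma adjusted p = 0.00469 and 0.00584), in a fit that called 2709 genes in all. The limma adjusted p over the libraries left out in turn went up to 1 for both genes. A lower transcript level after treatment in OE1 is therefore not shown to be particular to OE1.

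Averaged over both genotypes, treatment gave log2 folds of -0.32 ± 0.10 for Lsi1 and -0.37 ± 0.12 for Lsi2 (limma adjusted p = 0.196 and 0.209), and -0.24 and -0.16 for Nramp5 and HMA3. Here 0 of the 4 were called, against 0.542% of genes, and 2 had an unadjusted p under 0.05, against 14.6%. Without treated ZH11 replicate 2 this averaged treatment fold was -0.48 for Lsi2 and -0.43 for Nramp5. Averaged over both conditions, OE1 exceeded ZH11 by 0.47 ± 0.10 for Lsi1 (limma adjusted p = 0.113) and by 0.28 ± 0.12 for Lsi2. Again 0 of the 4 were called, against 0.811% of genes, and 2 passed an unadjusted p of 0.05, against 12%. Without treated ZH11 replicate 2 this averaged genotype fold was 0.39 for Lsi2. That of Nramp5 was -0.12 with and 0.069 without that library.

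The 4 genes followed the root markers in part. The 11 markers are nitrate, ammonium and phosphate transporters, root aquaporins and a Casparian strip protein. Their summed level was 71.2 and 69.2 TPM in untreated ZH11, 78.2 and 99.6 TPM in treated ZH11, 116 and 117 TPM in untreated OE1, and 93.8 and 88.1 TPM in treated OE1. The sum was highest in untreated OE1, as were Lsi1, Lsi2 and HMA3. A high-affinity nitrate transporter gene, LOC_Os02g02170, was listed at 0 in 7 of the 8 libraries, and no other marker was at 0 in any.

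In untreated OE1 against untreated ZH11, 9 of 9 tested root markers had a fold above 0, with a median of 0.93 against 0.01 over all genes. At an unadjusted p under 0.05 there were 6, all higher, against 4.94% of all genes in either direction. The phosphate transporter PHT1-2 (LOC_Os03g05640) was called higher, against 0.443% of all genes called. In OE1 under treatment 7 of the 9 had a fold below 0, with a median of -0.27 against -0.04 over all genes. Of the 9, 3 had an unadjusted p under 0.05, all lower, against 9.44% of all genes in either direction. A call was made for 1, against 0.241% of all genes. The 2 above 0 were the aquaporin genes TIP2-1 (LOC_Os02g44080) at 0.57 and PIP2-5 (LOC_Os07g26660) at 0.21. The third aquaporin marker, PIP2-3 (LOC_Os04g44060), was at -0.08. The nitrate transport partner NAR2.1 (LOC_Os02g38230) fell from 15.4 and 17.9 TPM to 3.58 and 4.65 TPM there (limma adjusted p = 0.0350). Without treated ZH11 replicate 2, the markers called were 2 higher in untreated OE1 (PHT1-2 and NAR2.1) and 3 lower in treated OE1 (NAR2.1 and the ammonium transporter genes LOC_Os02g40710 and LOC_Os02g40730). The Casparian strip protein gene LOC_Os04g58760, of the cell layers in which Lsi1 and Lsi2 act, had 5.75 and 3.71 TPM in untreated ZH11 and 12.1 and 9.41 TPM in untreated OE1. It had 9.35 and 8.09 TPM in treated OE1, so this gene stayed above untreated ZH11 where Lsi2 did not. For treatment in ZH11, 7 of the 9 markers had a fold above 0. At an unadjusted p under 0.05, 3 were higher and 1 lower, against 12.7% of all genes. The treatment effect in OE1 minus that in ZH11 was above 0 for 0 of the 9. There 4 were lower at an unadjusted p under 0.05, against 6.45% of all genes. Without treated ZH11 replicate 2, these counts above 0 were 6 and 1.

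**Figure D3:**
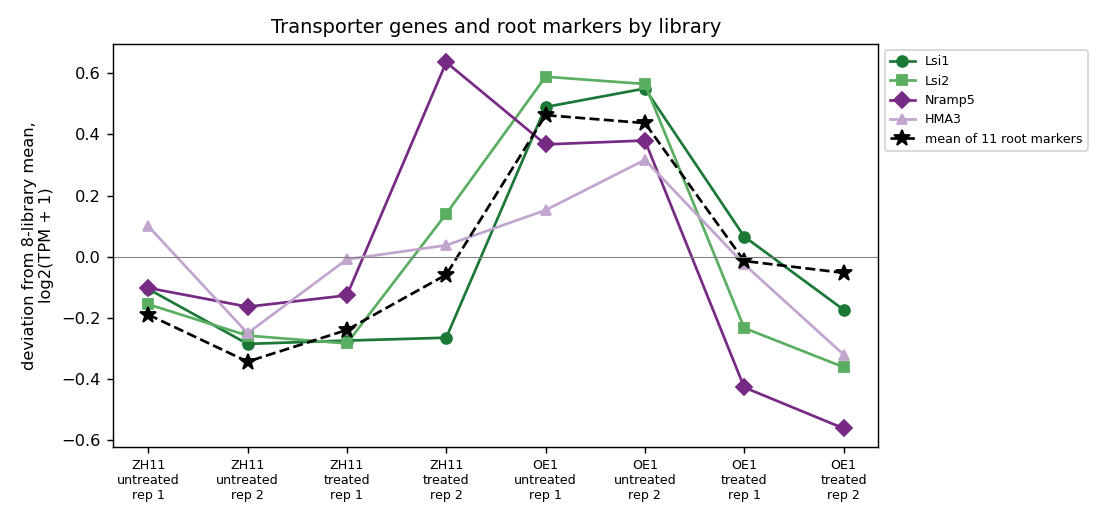
Deviation of each gene and of the mean of 11 root markers from its own mean over the 8 libraries, in log2(TPM + 1); lines only join the points of a gene. The root marker mean and the 4 genes are all above 0 in both untreated OE1 libraries, and Nramp5 alone reaches 0.64 in treated ZH11 replicate 2.

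Set against the root marker mean of the same library, the Lsi1 level was nearly even, from 5.37 to 5.69 above it in log2(TPM + 1), with the lowest value in treated ZH11 replicate 2. Lsi2 lay 4.25 and 4.34 above it in treated OE1 and 4.51 to 4.76 above it elsewhere. Nramp5 lay 1.5 and 1.60 above it in treated OE1 and 1.92 to 2.71 above it elsewhere. By this measure treated OE1 was the lowest group for Lsi2 and Nramp5 and not for Lsi1. In untreated OE1, Nramp5 lay 1.92 and 1.96 above the marker mean, below the 2.1 and 2.19 of untreated ZH11. HMA3 lay at -0.35 and -0.16 there, against 0.25 and 0.06 in untreated ZH11, so relative to these markers both genes were lower in untreated OE1, the reverse of their TPM. The part of root RNA content in the folds was not tested. The 30 shoot markers, chlorophyll-binding and Rubisco small subunit genes, summed to 62631 to 64621 TPM in the 4 untreated libraries and to 48181 to 55744 TPM in the 4 treated ones, and 1 was listed at 0 in treated ZH11 replicate 2. None of the 30 was called in any comparison, against 0.0316% to 0.953% of all genes. At an unadjusted p under 0.05, 14 were lower and 0 higher for treatment in ZH11, against 12.7% of all genes. In OE1 6 were lower and 0 higher, against 9.44%. Their median treatment folds were -0.445 in ZH11 and -0.21 in OE1, against 0.02 and -0.04 over all genes. Without treated ZH11 replicate 2 the ZH11 median was -0.21.

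The silicon genes also shifted against each other. Lsi1 exceeded Lsi2 by 2.11- and 2.00-fold in untreated ZH11 and by 1.90- and 2.01-fold in untreated OE1. The ratio was 2.51 and 2.33 in treated OE1, above every other library, and 2.05 and 1.54 in treated ZH11, where the low value is that of replicate 2. Nramp5 exceeded HMA3 by 3.63 to 7.45-fold, the highest ratio again in treated ZH11 replicate 2.

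Of 6 related transport genes, 0 were called in any comparison. They include cation efflux genes, a family to which none of the 4 belongs. At an unadjusted p under 0.05 there were 2 for treatment in ZH11, 0 for treatment in OE1, 1 between the untreated and 2 between the treated genotypes. There was 1 in each of the other comparisons. Over all genes the shares were 12.7%, 9.44%, 4.94% and 15.1%, and 6.45% to 14.6% in the other comparisons. Lsi6 (NIP2-2, LOC_Os06g12310), a silicon channel that unloads xylem in leaves and nodes, had 32.6 and 42.0 TPM in untreated ZH11 and 35.9 and 32.4 TPM in untreated OE1. Its fold between the genotypes was -0.11, with a 95% interval of -0.55 to 0.32, while that of Lsi1 was 0.72. Lsi1 was therefore 7.36- and 5.04-fold above Lsi6 in untreated ZH11 and 10.1- and 11.7-fold above it in untreated OE1. Lsi3 (LOC_Os10g39980), a close relative of Lsi2, had 53.9 and 54.5 TPM in untreated ZH11, 66.7 and 111 TPM in treated ZH11, 69.5 and 65.0 TPM in untreated OE1 and 71.5 and 53.7 TPM in treated OE1. Its treatment fold in OE1 was -0.12 (interval -0.70 to 0.47), against -0.87 for Lsi2.

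Nramp1 (LOC_Os07g15460), an iron and cadmium transporter whose locus number is near that of Nramp5, was lower in OE1. It had 27.4 and 33.0 TPM in untreated ZH11 and 30.3 and 26.6 TPM in treated ZH11, against 22.1 and 22.8 TPM in untreated OE1 and 19.0 and 16.3 TPM in treated OE1. All 4 OE1 libraries lay below all 4 ZH11 libraries (log2 fold -0.53 ± 0.12 averaged over conditions, limma adjusted p = 0.116, and 0.0468 without treated ZH11 replicate 2, not called). Nramp5 thus exceeded Nramp1 in untreated OE1, by 1.23- and 1.20-fold, and lay below it at 0.71- and 0.56-fold in untreated ZH11. In treated OE1 it also lay below Nramp1, at 0.80- and 0.85-fold. In treated ZH11 the ratio was 0.63 in replicate 1 and 1.24, the highest of all, in replicate 2. How reads shared by such relatives were split is not stated in the sources used here.

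HMA2 (LOC_Os06g48720), which loads zinc and cadmium into the xylem, had 16.8 and 17.5 TPM in untreated ZH11, 18.5 and 35.8 TPM in treated ZH11, 21.4 and 23.0 TPM in untreated OE1, and 18.6 and 11.8 TPM in treated OE1. Its high value is again treated ZH11 replicate 2, and its treatment fold in ZH11 was 0.56 with and 0.10 without that library. The gene model in the matrix carries the heavy-metal-associated domain without the ATPase domain. Of the cation efflux genes, MTP4 (LOC_Os03g12530) was lower under treatment in both genotypes, with all 4 treated libraries below all 4 untreated ones (log2 fold -0.43 ± 0.13 averaged over the genotypes, limma adjusted p = 0.177, not called). MTP7 (LOC_Os01g03914) had 53.9 to 63.1 TPM in 7 libraries and 80.2 TPM in treated ZH11 replicate 2.

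**Figure D4:**
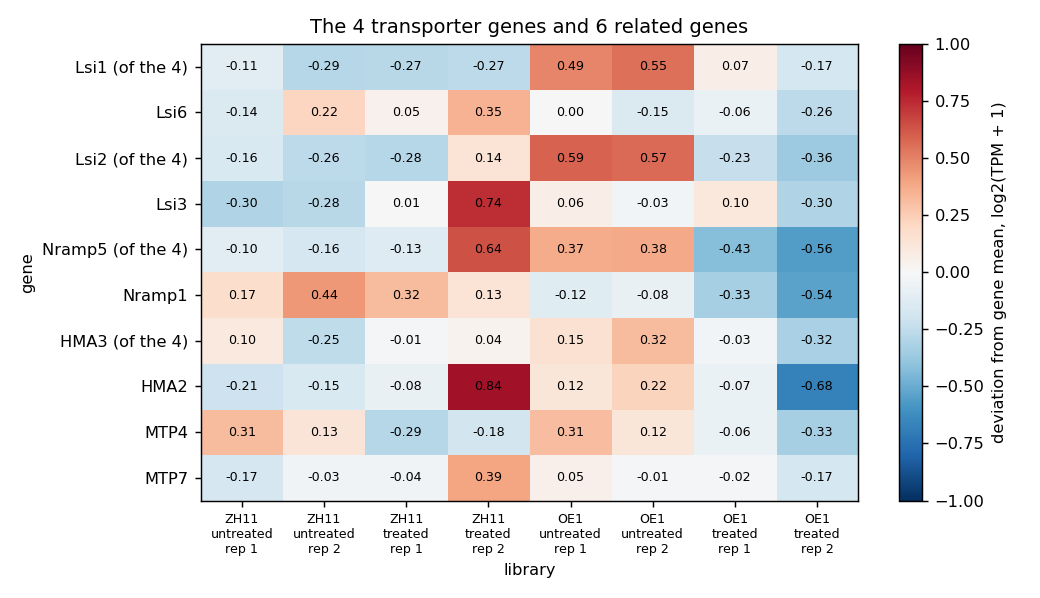
Deviation of each of the 4 transporter genes and 6 related genes from its own mean over the 8 libraries, in log2(TPM + 1), with the value in each cell. Lsi1 and Lsi2 reach 0.49 to 0.59 in untreated OE1 where Lsi6 and Lsi3 lie between -0.15 and 0.06, and Lsi3, Lsi6, Nramp5, HMA2 and MTP7 have their highest value in treated ZH11 replicate 2.

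The wider families were searched by protein domain: Nramp, ZIP, cation efflux, oligopeptide and yellow stripe-like, VIT1, ferroportin, heavy metal ATPase, Lsi2-type permease and NIP aquaporin genes, 113 without the 4, of which 85 were tested. The Nramp domain also takes in EIN2 genes, known from ethylene signalling. Likewise, the Lsi2-type permease genes include some that match DIT1, DIT2, TDT or NHD1 of Arabidopsis or spinach and not a rice Lsi protein. In none of the 7 comparisons was any of the 85 called. At an unadjusted p under 0.05, OE1 under treatment had 5 of them higher and 6 lower, with a median fold of -0.05. Untreated OE1 against ZH11 had 3 higher and 4 lower, with a median of 0.04, and ZH11 under treatment 8 higher and 3 lower, with a median of 0.09. Over all genes, 9.44%, 4.94% and 12.7% passed in either direction, in the same order, and the medians were -0.04, 0.01 and 0.02. The medians of the 4 root transporters were -0.72, 0.61 and 0.11 in the same comparisons. Without treated ZH11 replicate 2, the ZH11 medians were -0.0326 for the families and -0.0352 for the 4, and 2 family genes, named here after their values were seen, were called. These were YSL15 (LOC_Os02g43410), lower in OE1 under treatment, and the vacuolar iron transporter gene VIT2 (LOC_Os09g23300), higher in treated OE1 than in treated ZH11. The authors' deposited tables of called genes held none of the 4 and none of the 6 related genes. They held 1 other family gene, the iron-phytosiderophore transporter gene YSL15, with the authors' log2 fold of -1.08 for treatment in OE1.

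Between the 4 genes, likeness over the 8 libraries was highest for Lsi1 and Lsi2, with a Pearson r of 0.84, and lowest for Lsi1 and Nramp5, with 0.38. By rank the order differed: Spearman's rho was 0.88 for Lsi2 and HMA3, 0.67 for Lsi1 and Lsi2, and again lowest for Lsi1 and Nramp5, with 0.29. These values describe 8 libraries in 4 groups, which share the high untreated OE1 level, and no p is given. Among 12779 genes with a described function and a mean of at least 5 TPM, Lsi1 was most like LOC_Os01g63210, a SOUL heme-binding protein gene (r = 0.99), LOC_Os02g52210, a RING-type zinc finger gene (r = 0.98), and LOC_Os06g34070, a GDSL-like lipase gene (r = 0.97). LOC_Os01g63210 had 24.0 and 21.4 TPM in untreated ZH11, 37.3 and 36.6 TPM in untreated OE1 and 26.8 and 22.3 TPM in treated OE1.

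Lsi2 was most like a peroxidase gene, LOC_Os03g25330 (r = 0.98), with 33.3 and 31.1 TPM in untreated ZH11, 55.6 and 54.9 TPM in untreated OE1 and 29.5 and 24.4 TPM in treated OE1. LOC_Os11g34320, a match of the UV-B receptor UVR8 of Arabidopsis (r = 0.98), and a second peroxidase gene, LOC_Os07g48040 (r = 0.96), came next. Nramp5 was most like LOC_Os06g50940, a GDSL-like lipase gene (r = 0.99), LOC_Os12g33610, a phenylalanine ammonia-lyase gene of the entry step of phenylpropanoid synthesis (r = 0.98), and LOC_Os09g01960, a MYB factor gene (r = 0.98). LOC_Os12g33610 had 116 TPM in treated ZH11 replicate 2, above its 50.5 to 96.5 TPM elsewhere, as Nramp5 did. HMA3, at low TPM, was most like LOC_Os09g29660, an ABC transporter gene (r = 0.97), LOC_Os06g05690, a cysteine synthase gene (r = 0.91), and LOC_Os01g63470, a C2 domain gene (r = 0.91).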

How the data were processed

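The authors deposited 1 matrix of TPM for each gene and library, tables of called genes with a log2 fold and an adjusted p-value, and a read count and percent GC for each library, per the file headers. Cufflinks 2.2.1 is named, without a role, in the submitters' processing notes. Aligner, counting strand, test and build are not given in these sources. TPM hold no counts, so the depth behind a single value is unknown.

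The filter kept 25281 genes with 1 TPM or more in 2 or more libraries. Values were converted to log2(TPM + 1) and fitted with limma as 4 group means with an eBayes trend, from which 7 contrasts were drawn. Adjusted p-values are Benjamini-Hochberg over all tested genes of a contrast. The script was tested on simulated data. The genes and lists were chosen with earlier results of these data known.

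Named genes were the 4, the 6 related transport genes given by identifier, family genes that were called, and the 3 genes with the highest Pearson r per gene. MTP4 and MTP7 carry their Swiss-Prot names. A root marker without annotation was dropped, which left 11. No sequence was used here. Software was R 4.3.3, limma 3.58.1, edgeR 4.0.16 for TMM factors, Python 3.11.15, pandas 2.3.3 and matplotlib 3.10.9. The alternatives are given in the closing section.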

Additional observations from a re-analysis of the deposited data

Results flagged for a closer look

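Nramp5 and HMA3 were each higher in OE1 than in ZH11 in every untreated library and lower in every treated library, so their genotype difference had opposite signs in the untreated and treated seedlings. The change in that difference was -1.26 for Nramp5 and -0.50 for HMA3 on the log2 scale, and neither passed (limma adjusted p = 0.516 and 0.805). For HMA3 the opposite signs were lost with the length gradient removed, when the treated fold was 0.11. Treated ZH11 replicate 2 held the highest Nramp5 value, and replicate 1, at 19.0 TPM, still lay above the 15.2 and 13.8 TPM of treated OE1.

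HMA2 was higher in both treated than in both untreated ZH11 libraries and lower in both treated than in both untreated OE1 libraries. The difference of its treatment effects was -1.11 (limma adjusted p = 0.750), and without treated ZH11 replicate 2, which held the highest HMA2 value, it was -0.65 (limma adjusted p = 0.596). Groups of 2 libraries allow no search for outlying libraries within a group.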

How the results depend on the processing

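The 21 alternatives were TMM and median-of-ratios scaling, pseudocounts of 0.1 and 5, no filter, a filter at 5 TPM, a fit on the 4 compared libraries, no trend, no threshold on the fold, the replicate block, removal of the length gradient, a read-length term, library weights, and each of the 8 libraries left out. Of 569 folds of the 4 genes recomputed, 556 kept their direction and side of the threshold, 10 reversed, 3 gained a call and 0 lost one. HMA3 did not pass the filter at 5 TPM, and the 4-library fit applied to 4 of the 7 contrasts. The library weights came out equal for both libraries of each group.

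With the length gradient removed, HMA3 had a fold of -0.10 for treatment in ZH11 and 0.11 for OE1 against ZH11 under treatment. With the read-length term, OE1 against ZH11 averaged over conditions was 0.0539 for Nramp5 and -0.0146 for HMA3. Leaving out 1 library each gave treatment folds in ZH11 of -0.16 to 0.0156 for Lsi1, -0.0769 to 0.35 for Lsi2 and -0.0855 to 0.26 for HMA3, and averaged genotype folds of -0.31 to 0.0693 for Nramp5 and -0.0261 to 0.15 for HMA3. Each of these was uncalled in the fit of all libraries, and the cause was not tested. Leaving out 1 library each gave 0 to 1 of the 4 called between the treated genotypes and 0 to 2 for the difference of treatment effects, the upper values without treated ZH11 replicate 1.

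The fits of HMA2, the families and the markers without treated ZH11 replicate 2 were chosen after seeing the data. Counts over all genes moved far more. Without treated ZH11 replicate 1, genes called for treatment in ZH11 went from 73 to 2630, between the treated genotypes from 241 to 3850, and for the difference from 8 to 2709. Over all alternatives the lowest counts were 0, 40 and 0. For treatment in OE1 the count was 61, with 0 to 575, and for the untreated genotypes 112, with 38 to 221. Averaged over genotypes, the treatment count was 137, with 11 to 514, and averaged over conditions the genotype count was 205, with 82 to 830.

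Replicate numbers are shared by the groups but nothing says that they mark a common batch. Over all genes, replicate differences correlated at 0.23 between untreated and treated ZH11 and at -0.28 to 0.06 between the other pairs of groups, so the numbers were not taken as pairing. With the replicate block, 0 of the 4 genes were called in any comparison, and the limma adjusted p for treatment in OE1 was 0.300 for Lsi1, 0.205 for Lsi2, 0.344 for Nramp5 and 0.781 for HMA3. The block called 21 genes for treatment in ZH11, 25 in OE1, 130 between the treated genotypes and 0 for the difference.

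The precision is limited by 2 libraries per group, and for HMA3, the lowest of the 4, by a level whose read counts are not known.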
